A study of Ovis aries with 6 samples.

Results

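The miR-99, miR-100 and miR-125 entries of the fetal sheep rumen were chosen by name and sequence, as novel_miR_1092, which has the miR-100 sequence, and any entry with a sheep name of miR-99, miR-100 or miR-125. This gave 3 of the 1253 listed miRNAs, oar-miR-99a, novel_miR_1092 and oar-miR-125b. The measurement was small RNA sequencing of rumen from 3 male fetuses of undernourished ewes (UN) and 3 of control ewes (CON), each fetus giving 1 library. All ewes were Hu sheep, labelled wild type, and carried several fetuses. The UN ewes were given 30% of their baseline feed intake during 15 d, starting at gestation day 115, and the CON ewes kept their full intake. Tissue was taken at day 130 by the study's methods, while the sample labels state day 115 and use the name TR for UN. Jejunum and ileum appear in the title of the series, but every sample carries the label rumen, which was followed. The samples were whole rumen tissue, in which fewer cells of a type and less RNA per cell cannot be told apart.

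miRNAs are short RNAs that lower the output of mRNAs that pair with them, mainly through the seed, which is bases 2 to 8. miR-99 and miR-100 belong to 1 old family and are known in human and mouse cells for targeting mTOR and the IGF1 receptor, which couple growth to nutrients. miR-125 is the vertebrate relative of the worm lin-4, which times larval development, and in mammals it targets LIN28, the RNA-binding protein that blocks maturation of let-7. In mammalian genomes, genes of the miR-99/100, let-7 and miR-125 families lie together in clusters. In the RefSeq table of the sheep assembly ARS-UI_Ramb_v3.0, MIR99A and MIRLET7C are direct neighbours inside LOC121816219. MIR125B lies inside the lncRNA LOC105602212, with TVP23B and TRNAC-ACA as its nearest neighbours. It was the only miR-125 symbol looked up, so a further copy near MIR99A was not searched for. That table has no MIR100 symbol.

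The members carried 2 seeds, shown in capitals in the sequences that the study listed for its miRNAs. The only other listed entry with either seed, novel_miR_161, is shown with them. It was not matched to a named miRNA, so it may be a miR-125 without a sheep name.

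oar-miR-99a: aACCCGUAgauccgaucuug
novel_miR_1092: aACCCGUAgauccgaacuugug
oar-miR-125b: uCCCUGAGacccuaacuugug
novel_miR_161: uCCCUGAGacccuuuaaccugug

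oar-miR-99a and novel_miR_1092 shared the seed ACCCGUA and their first 15 bases. Over the 20 bases of the listed oar-miR-99a they differed only by U16A, counted from the 5′ end, with the base of oar-miR-99a given first. oar-miR-125b and novel_miR_161 shared the seed CCCUGAG and their first 13 bases. No other listed entry had the full sequence of any of these 4. How reads with a mismatch or a trimmed end were assigned between such near-identical entries is not given in the sources used here, so their separate levels are uncertain to that extent.

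The levels are in RPM, in which all listed miRNAs of a library sum to 1000000. The libraries held 18731340 to 27059374 assigned reads in the UN group and 18584326 to 35555822 in the CON group, and 1 read equalled 0.0281 to 0.0538 RPM. oar-miR-143, known from smooth muscle, took 376794 to 485000 RPM in the UN group and 294912 to 500253 RPM in the CON group, with the lowest value in CON replicate 2. That library also had a TMM scaling factor of 1.28, against 0.915 to 1.02 in the other 5. The epithelial miRNAs oar-miR-200a, oar-miR-200b and oar-miR-200c were the 3 of 7 listed epithelial markers present under sheep names. They summed to 11663 to 14196 RPM in the UN group and 14495 to 18317 RPM in the CON group, without overlap. Singly, only oar-miR-200b separated the groups, at 4358 to 5523 RPM in UN and 6477 to 7397 RPM in CON, while oar-miR-200a and oar-miR-200c overlapped. Of the 567 miRNAs tested below, 12.3% had every UN library below every CON library. The part of the epithelial miRNAs in the results below was not tested. Of the other marker lists, oar-miR-133 (striated muscle) was at 160 to 280 RPM in the UN group and 232 to 268 RPM in the CON group, and oar-miR-194 (intestine) at 119 to 134 RPM in the UN group and 111 to 144 RPM in the CON group. oar-miR-150 (leukocyte) was at 3.36 to 4.36 RPM in the UN group and 3.77 to 6.02 RPM in the CON group. The endothelial, erythroid, liver and neural markers had no entry under a sheep name and were not analysed here.

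oar-miR-99a was by far the most abundant member. It stood at 31383, 25145 and 30327 RPM in UN replicates 1, 2 and 3, against 24505, 34284 and 22205 RPM in CON replicates 1, 2 and 3. Its rank among the 1253 entries was 5 to 7 in the UN libraries and 7 or 8 in the CON libraries. The CON libraries held both the highest and the lowest value, so the groups overlapped. The means were 28952 ± 3339 RPM in UN and 26998 ± 6414 RPM in CON (SD, n = 3 each).

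novel_miR_1092 was the rarest member. It stood at 924, 1947 and 832 RPM in UN replicates 1, 2 and 3, against 744, 921 and 638 RPM in CON replicates 1, 2 and 3. UN replicate 2 lay 2.11-fold above the next library, while the other 5 lay within 638 to 924 RPM. The groups overlapped, since UN replicate 3 lay below CON replicate 2. The means were 1234 ± 619 RPM in UN and 768 ± 143 RPM in CON (SD, n = 3 each).

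oar-miR-125b lay between them. It stood at 3558, 3892 and 3960 RPM in UN replicates 1, 2 and 3, against 3746, 4870 and 3610 RPM in CON replicates 1, 2 and 3. CON replicate 2 was the highest library, as for oar-miR-99a, and the other 5 lay close together. The means were 3803 ± 215 RPM in UN and 4075 ± 692 RPM in CON (SD, n = 3 each). The order oar-miR-99a, oar-miR-125b, novel_miR_1092 held in each of the 6 libraries, with no overlap of the levels of any pair. Differences in level between miRNAs can also come from unequal ligation of their ends, which was not measured.

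**Figure D1:**
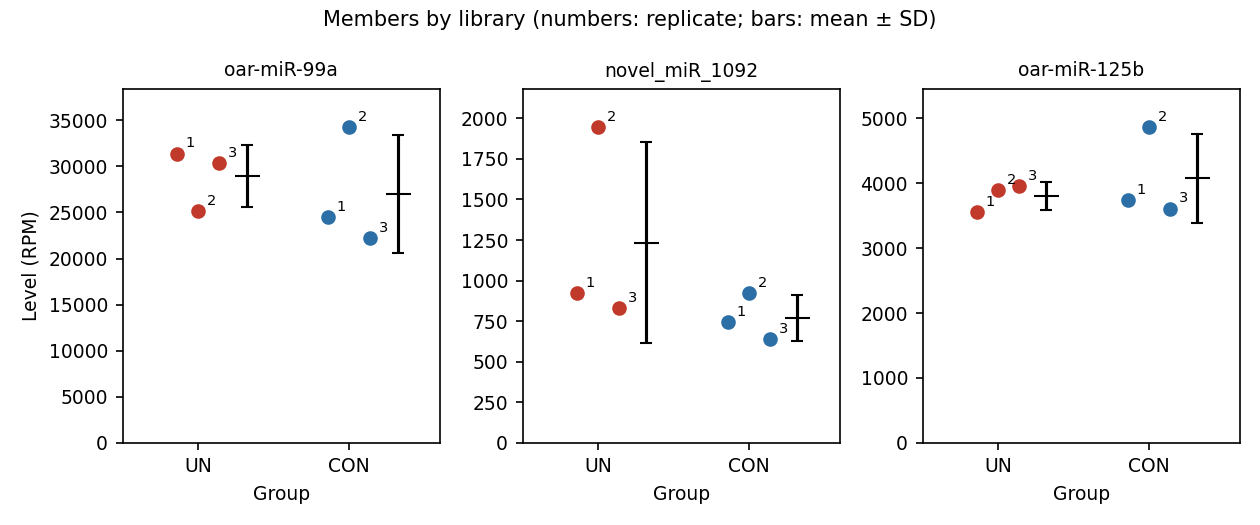
Level in RPM (vertical axis, from 0) of the 3 members in UN and CON libraries. Numbers mark the replicate, and bars give the mean ± SD (n = 3). UN replicate 2 stands alone at 1947 RPM for novel_miR_1092, and CON replicate 2 is the highest library for oar-miR-99a (34284 RPM) and oar-miR-125b (4870 RPM).

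The question of the design was whether feed restriction of the ewe changed these miRNAs in the fetal rumen. None of the 3 members passed an adjusted p of 0.05 in the main test. Levels were compared as log2(RPM + 1) with limma across the 567 miRNAs that passed a filter on low reads, which all 3 members did. novel_miR_1092 had the largest log2 fold change of the 3, 0.59 (standard error 0.30, 95% interval -0.04 to 1.23, unadjusted p = 0.066, adjusted p = 0.84). oar-miR-99a had a log2 fold change of 0.12 (95% interval -0.29 to 0.53, adjusted p = 0.94). For oar-miR-125b it was -0.09 (95% interval -0.50 to 0.32, adjusted p = 0.99). These intervals leave room for changes of either sign for each member, and for novel_miR_1092 up to 1.23 on the log2 scale. By limma 0 of 567 miRNAs (0%) passed an adjusted p of 0.05 in either direction, while 29 (5.11%) had an unadjusted p under 0.05. The groups overlapped for all 3 members, where 1.06% of the 567 had every UN library above every CON library and 12.3% every UN library below.

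Over the 567 tested miRNAs the log2 fold change had a median of -0.12 on the RPM scale and 0.01 with TMM-scaled RPM, and 26.5% and 51.5% of the miRNAs lay above 0 on these scales. Relative to the RPM median, the members lay at 0.71 for novel_miR_1092, 0.24 for oar-miR-99a and 0.04 for oar-miR-125b. With TMM-scaled RPM the distances from the median were 0.75, 0.28 and 0.07 in the same order. The log2 fold change of oar-miR-125b itself turned to 0.08 with TMM scaling, so its sign depended on the scale.

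**Figure D2:**
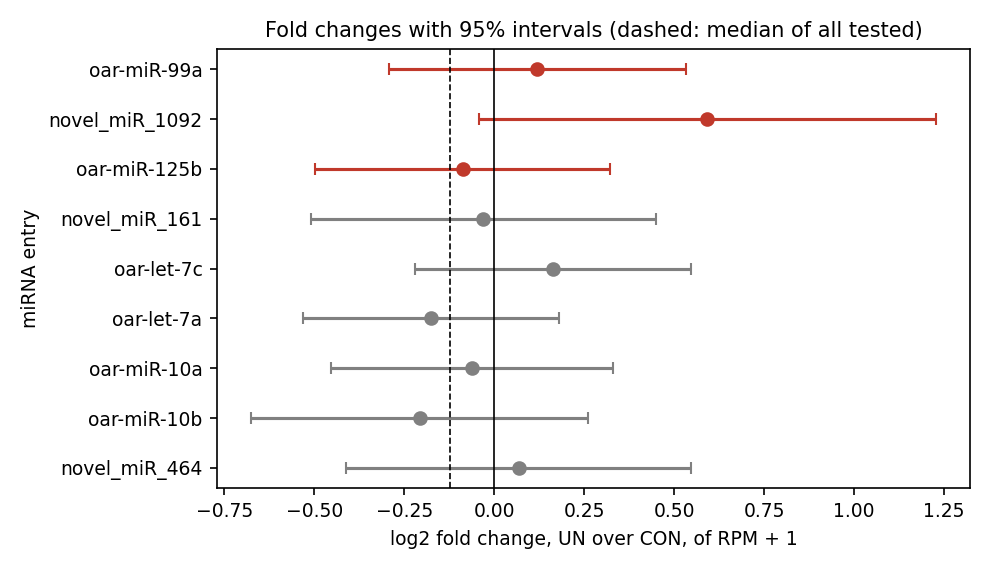
log2 fold change of UN over CON, on the RPM + 1 scale, with 95% intervals from limma, for the members (red) and related entries (grey). The solid line is 0 and the dashed line the median of the 567 tested miRNAs at -0.12. All intervals include 0, and novel_miR_1092 lies farthest right at 0.59.

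The difference in novel_miR_1092 rested on UN replicate 2. Leaving that library out brought the log2 fold change to 0.21 (standard error 0.29, adjusted p = 1.00 in limma), and with any other single library left out it ranged from 0.47 to 0.82. Among the 151 entries that averaged at least 100 RPM, novel_miR_1092 was the only one that lay at least 2-fold above the next highest library in UN replicate 2. The entry that came next, novel_miR_442, stood 1.00-fold above its next library, with 259 RPM in UN replicate 2 and 258 RPM in CON replicate 2. No entry lay 2-fold above the next library in any of the other 5 libraries. UN replicate 2 lay inside the range of the other 5 libraries for oar-miR-99a, oar-miR-125b and oar-miR-143, at 25145, 3892 and 437822 RPM. The value of novel_miR_1092 there rested on 39882 reads, against 17307 and 22510 in the other UN libraries and 17110 to 22701 in the CON libraries. Its within-group SD on the log2 scale lay at the 93rd percentile of the 151 entries, against the 50th for oar-miR-99a and the 21st for oar-miR-125b.

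**Figure D3:**
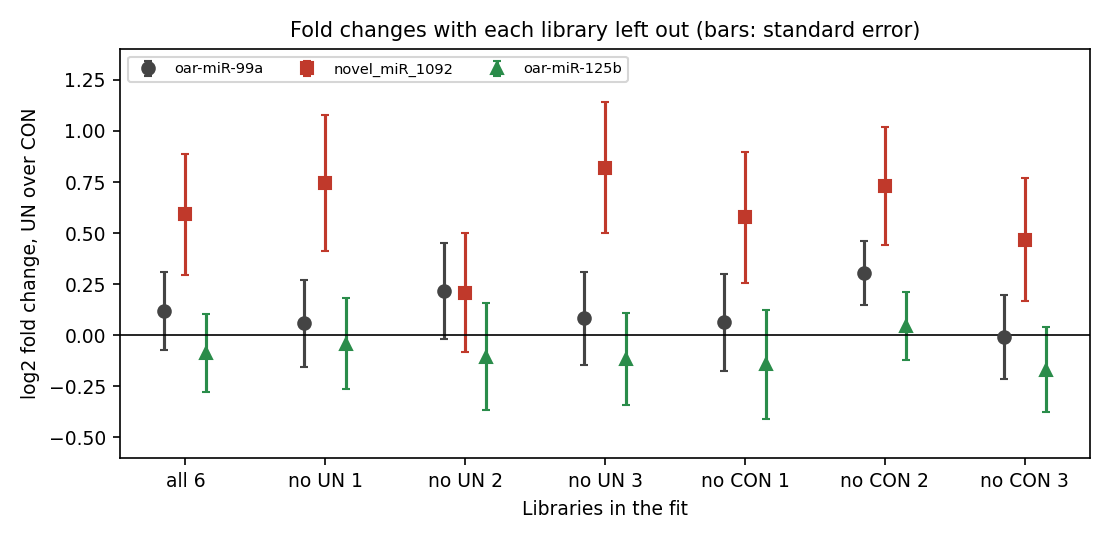
log2 fold change of UN over CON with its standard error from limma, for all 6 libraries and with each library left out in turn. novel_miR_1092 drops to 0.21 without UN replicate 2 and lies at 0.47 to 0.82 without any other library, while oar-miR-99a lies at -0.01 to 0.30 and oar-miR-125b at -0.17 to 0.05.

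Ratios within a library do not depend on how the library was scaled. novel_miR_1092 stood at 2.94%, 7.74% and 2.74% of the level of oar-miR-99a in UN replicates 1, 2 and 3, and at 3.04%, 2.69% and 2.88% in CON replicates 1, 2 and 3. The 5 libraries other than UN replicate 2 thus lay within 2.69% to 3.04%, although oar-miR-99a itself ranged from 22205 to 34284 RPM in them. The mean log2 ratio was -4.65 ± 0.84 in UN and -5.13 ± 0.09 in CON (SD, n = 3 each), a difference of 0.47 (exact two-sided permutation p = 0.60, adjusted over 5 ratios p = 0.75). Without UN replicate 2 the difference was -0.01. Over the reads of the 3 members together, novel_miR_1092 took 2.58%, 6.29% and 2.37% in UN replicates 1, 2 and 3, with a 95% Wilson interval of 6.23% to 6.35% for UN replicate 2. In the CON libraries it took 2.57%, 2.30% and 2.41%. Such intervals cover counting error only.

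**Figure D4:**
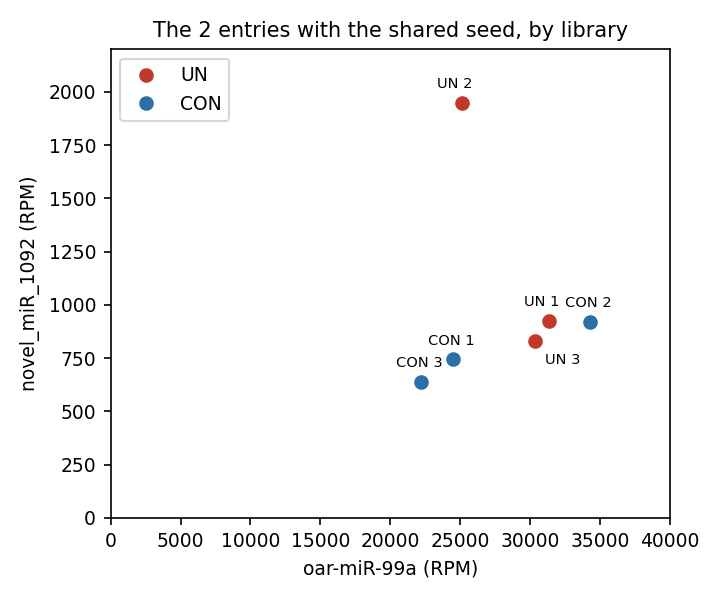
Level of novel_miR_1092 against that of oar-miR-99a in RPM, 1 point per library, both axes from 0. In 5 libraries novel_miR_1092 lies at 2.69% to 3.04% of oar-miR-99a, and UN replicate 2 lies above them at 7.74%.

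Against oar-miR-125b, novel_miR_1092 was higher in each UN library than in any CON library. The ratio was 0.260, 0.500 and 0.210 in UN replicates 1, 2 and 3, and 0.199, 0.189 and 0.177 in CON replicates 1, 2 and 3. The mean log2 ratio differed by 0.68, and by 0.31 without UN replicate 2, where the groups still did not overlap (exact two-sided permutation p = 0.20). Over all 6 libraries the exact two-sided permutation p was 0.10, the smallest that 3 against 3 libraries can give, and 0.50 adjusted over the 5 ratios. How often ratios to oar-miR-125b separate the groups over all miRNAs was not measured. oar-miR-99a stood at 8.82, 6.46 and 7.66 times the level of oar-miR-125b in the UN libraries and 6.54, 7.04 and 6.15 times in the CON libraries, which overlapped (difference of 0.21 in log2 ratio, exact permutation p = 0.30, adjusted p = 0.75). This difference was 0.099 without UN replicate 1 and 0.32 without UN replicate 2.

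Summed by seed, the ACCCGUA pair reached 30186 ± 2740 RPM in UN and 27766 ± 6553 RPM in CON (SD, n = 3 each). oar-miR-99a made up most of this sum, so that the excess of novel_miR_1092 in UN replicate 2 left the pair at 27092 RPM there, below the other UN libraries at 32307 and 31159 RPM. The CCCUGAG pair reached 5495 ± 487 RPM in UN and 5818 ± 1094 RPM in CON. The 3 members together took 3.40% ± 0.26 of the assigned reads in UN and 3.18% ± 0.72 in CON (SD, n = 3 each).

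novel_miR_161, which shares the oar-miR-125b seed, stood at 1412, 1691 and 1972 RPM in UN replicates 1, 2 and 3, against 1450, 2211 and 1567 RPM in CON replicates 1, 2 and 3. The groups overlapped, and its log2 fold change was -0.03 (adjusted p = 1.00 from limma). It took 28.4% to 33.2% of the reads of its seed pair in the UN libraries and 27.9% to 31.2% in the CON libraries. The ratio of oar-miR-125b to novel_miR_161 was 2.28 ± 0.26 in UN and 2.36 ± 0.20 in CON (SD, n = 3 each), and the log2 ratio did not differ beyond its spread (exact permutation p = 0.60, adjusted p = 0.75).

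Over the 6 libraries, oar-miR-125b and novel_miR_161 had a Pearson r of 0.89 (exact permutation p = 0.011, adjusted over 5 pairs p = 0.056) and a Spearman rho of 0.94 (exact permutation p = 0.017, adjusted p = 0.083). Without CON replicate 2 and UN replicate 1, the libraries farthest from the median of oar-miR-125b, r was 0.77. None of the 5 pairs passed an adjusted p of 0.05. oar-miR-99a and novel_miR_1092 had an r of 0.08 (exact permutation p = 0.92) and a rho of 0.60 (exact permutation p = 0.24), and 1 library decided this value, since r was 0.97 over the 5 libraries other than UN replicate 2. oar-miR-99a and oar-miR-125b had an r of 0.62 (exact permutation p = 0.15), which turned to -0.28 without CON replicates 2 and 3. Libraries share 1 total, so that an abundant miRNA such as oar-miR-143 moves all RPM together.

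Of the let-7 entries, oar-let-7c was compared with its partner oar-miR-99a, while for oar-let-7a only its own levels and fold change are given. oar-let-7c, the neighbour of MIR99A in the RefSeq table, stood at 5305, 5184 and 4839 RPM in UN replicates 1, 2 and 3, against 4978, 4609 and 4132 RPM in CON replicates 1, 2 and 3. Its groups overlapped, with a log2 fold change of 0.16 (adjusted p = 0.85 from limma). oar-miR-99a stood at 4.85 to 6.27 times the level of oar-let-7c in the UN libraries and 4.92 to 7.44 times in the CON libraries, and the mean log2 ratio differed by -0.04 (exact permutation p = 0.90, adjusted p = 0.90). Over the 6 libraries oar-let-7c and oar-miR-99a had an r of 0.34 (exact permutation p = 0.53) and a rho of 0.26. oar-let-7a stood at 10055, 10311 and 11272 RPM in UN replicates 1, 2 and 3, against 12580, 11677 and 11488 RPM in CON replicates 1, 2 and 3. All UN libraries lay below all CON libraries, as for 12.3% of the miRNAs tested, and its log2 fold change of -0.18 did not pass (adjusted p = 0.85 from limma). No let-7e entry was among those analysed here.

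The miR-10 family, encoded among the HOX genes, is related in sequence to miR-99 and miR-100. The listed sequences of the pair are shown with the seed again in capitals.

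oar-miR-10a: uACCCUGUagauccgaauuug
oar-miR-10b: aCCCUGUAgaaccgaauuugug

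oar-miR-10a shared a run of 11 bases with novel_miR_1092, from base 7 of oar-miR-10a and base 6 of novel_miR_1092. The longest runs that oar-miR-10b shared with novel_miR_1092 had 5 bases, the first from base 6 of both, and were broken by single differing bases. Run length does not rank likeness over the full sequences, which was not measured for the miR-10 entries. Neither entry had a seed of a member. As listed, oar-miR-10b starts 1 base further along the shared sequence than oar-miR-10a, so the seeds shown for the pair differ by that shift. oar-miR-10a stood at 17290 to 19616 RPM in the UN libraries and 16141 to 23785 RPM in the CON libraries, with a log2 fold change of -0.06 (adjusted p = 1.00 from limma). oar-miR-10b stood at 2300 to 2697 RPM in the UN libraries and 2481 to 3966 RPM in the CON libraries, with a log2 fold change of -0.21 (adjusted p = 0.85 from limma). Neither had UN replicate 2 as an extreme beyond the CON range.

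Likeness of pattern was measured as Pearson r of log2(RPM + 1) over the 6 libraries, among the entries averaging at least 100 RPM, and is given as a description because the highest of 150 values were picked. The entries most like oar-miR-99a were oar-miR-543-3p (r = 0.95), oar-miR-218a (r = 0.93) and novel_miR_334 (r = 0.92). With TMM-scaled RPM these 3 also held the 3 highest places. Those most like novel_miR_1092 were oar-miR-26a (r = 0.74), oar-miR-23a (r = 0.65) and oar-miR-23b (r = 0.64), and UN replicate 2 was the highest library for none of them. With TMM-scaled RPM they lay at places 3, 2 and 11. Without UN replicate 2 their r was 0.94, 0.87 and 0.82, against 0.97 for oar-miR-99a. The entries were not ranked again without that library, so these values do not show which entry was then closest. For oar-miR-125b they were novel_miR_1013, oar-miR-10b and novel_miR_1114, each at r = 0.99. With TMM-scaled RPM they lay at places 3, 22 and 14. novel_miR_161, with the seed of oar-miR-125b, lay at place 12 by RPM (r = 0.89) and at place 1 with TMM-scaled RPM (r = 0.92).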

How the data were processed

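The authors ligated size-selected small RNA, sequenced it single-end, mapped it to a sheep genome by Bowtie2, in a version not given in the sources used here. They reported sheep-named and predicted miRNAs. The library kit differs between the labels and the paper. The deposited values are RPM per miRNA, although the column is named TPM: they sum to 1000000 per library and are not divided by length. Divided by the smallest value above 0, all other values (100%) were whole within 0.001 reads, so reads were recovered. These totals count reads assigned to the listed miRNAs only.

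UN and CON were compared on log2(RPM + 1) of the deposited RPM with limma 3.58.1 (trend, no covariate, 6 libraries) in R 4.3.3, with Benjamini-Hochberg adjustment over 567 miRNAs kept by edgeR's filterByExpr on the recovered reads (minimum count 10, minimum total 15). Each library is 1 fetus, and whether the 3 fetuses of a group came from separate ewes is not stated. Alternatives were other pseudocounts, filters and scalings, edgeR 4.0.16 and DESeq2 1.42.0 on the recovered reads, a replicate block, and each library left out. Ratios were tested with exact permutations of the libraries (SciPy 1.17.1). Libraries of a group differed by a chi-square of at least 437 per degree of freedom, so none was a duplicate. The fits were tested on simulated reads. Sequences come from the study's list, which covered all 1253 entries, and gene neighbours from RefSeq, whose coordinates are not printed because the build used by the authors was not settled.

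The members, lists and related entries were chosen with earlier results of these data known. The text names the members, entries with their seeds, let-7c, let-7a, miR-10a, miR-10b, miR-143 and the 3 entries most like each member by Pearson r. novel_miR_442, novel_miR_464, novel_miR_268 and novel_miR_305 were named after their values were seen. Cell type markers were matched by sheep name only.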

Additional observations from a re-analysis of the deposited data

How the results depend on the processing

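No member passed an adjusted p of 0.05 under any of 16 alternatives to the limma fit, and none of the related entries did either. The log2 fold change of novel_miR_1092 stayed above 0, from 0.21 to 0.82 with 1 library left out and from 0.59 to 0.88 otherwise, with adjusted p from 0.38 to 1.00. The study called miRNAs with DESeq2 at an unadjusted p under 0.05 and a fold change over 1.5 or under 0.67. By that rule novel_miR_1092 was up with DESeq2 here (log2 fold change 0.88, unadjusted p = 0.0074), among 9 up and 4 down of the 567. With edgeR it had 0.88 (unadjusted p = 0.017). oar-miR-99a and oar-miR-125b were not called by either. oar-miR-99a had 0.29 with DESeq2 (unadjusted p = 0.055, adjusted p = 0.86). With edgeR it also had 0.29 (unadjusted p = 0.045, adjusted p = 0.82), short of the fold change in the rule. Without UN replicate 2 limma gave novel_miR_1092 an unadjusted p of 0.48. The cause of the changes below was not tested.

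oar-miR-99a turned to -0.0084 without CON replicate 3 and otherwise lay between 0.058 and 0.30. oar-miR-125b turned from -0.088 to 0.079 with TMM-scaled RPM, 0.10 with quantile normalization, 0.082 with edgeR, 0.088 with DESeq2 and 0.047 without CON replicate 2 (-0.17 to 0.047 over the left-out libraries). novel_miR_161 turned from -0.03 to 0.14 with TMM, 0.026 with oar-miR-143 left out of the RPM total, 0.15 with edgeR, 0.16 with DESeq2, and ranged from -0.15 to 0.15 with 1 library left out. oar-let-7a turned to 0.10 with quantile normalization. oar-miR-10a turned to 0.11 with TMM, 0.063 with quantile normalization, 0.10 with edgeR, 0.10 with DESeq2, and ranged from -0.19 to 0.091 with 1 library left out. oar-miR-10b turned to 0.086 with quantile normalization and ranged from -0.33 to 0.012 with 1 library left out. With 1 library left out, the log2 ratio of oar-miR-99a to oar-let-7c ranged from -0.16 to 0.13, that of oar-miR-99a to oar-miR-125b from 0.099 to 0.32, that of novel_miR_1092 to oar-miR-125b from 0.31 to 0.94, that of novel_miR_1092 to oar-miR-99a from -0.010 to 0.74 and that of oar-miR-125b to novel_miR_161 from -0.13 to 0.031.

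Over all miRNAs, 0 up and 0 down by limma became 1 up with TMM, 1 up with oar-miR-143 left out of the total, 1 up with quantile normalization, 1 up with edgeR, 2 up and 2 down with DESeq2, and 0 to 2 up and 0 to 1 down without 1 library. At an unadjusted p under 0.05 limma had 4 up and 25 down on the RPM scale, 16 and 12 with TMM and 12 and 14 with quantile normalization, while edgeR had 19 and 11 and DESeq2 21 and 8, so the balance of directions depended on the scaling.

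The replicate numbers, shared by UN and CON libraries in the labels, did not pair them: deviations of same-numbered libraries correlated at -0.07, 0.07 and 0.19, and UN replicate 1 correlated best with CON replicate 2 (0.17). With the replicate block novel_miR_1092 had a log2 fold change of 0.59 (adjusted p = 0.74), oar-miR-99a 0.12 (adjusted p = 0.95) and oar-miR-125b -0.09 (adjusted p = 0.99), and the block gave 0 up and 0 down over all miRNAs. At an unadjusted p under 0.05 it had 9 up and 28 down. Depth did not limit the members, whose lowest count in a library was 17110 reads.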

Other observations

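A further entry, novel_miR_464, was looked at after its values were seen, because of its pairing with oar-miR-125b. Its listed sequence is shown beside that of the member, whose seed is in capitals.

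oar-miR-125b: uCCCUGAGacccuaacuugug
novel_miR_464: acaagucaggcucuugggacc

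Of the other 1252 listed entries, novel_miR_464 formed the second most stable predicted duplex with oar-miR-125b (-20.3 kcal/mol over 16 base pairs, RNAduplex of ViennaRNA 2.7.2). The most stable was novel_miR_268 at -23.7 kcal/mol, which averaged 0.502 RPM. novel_miR_464 stood at 119, 118 and 107 RPM in UN replicates 1, 2 and 3, against 110, 120 and 98.5 RPM in CON replicates 1, 2 and 3. The groups overlapped, and its log2 fold change was 0.07 (adjusted p = 1.00 from limma). The listed entries most stable with oar-miR-99a and novel_miR_1092 were both novel_miR_305, at -19.4 and -18.7 kcal/mol, which averaged 0.260 RPM. novel_miR_464 also came second for novel_miR_1092, at -18.2 kcal/mol over 15 base pairs, a weaker duplex than with oar-miR-125b. It was not matched to a named miRNA. Predicted pairing is a description and does not place an entry on a hairpin.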
